A study of Mus musculus with 13 samples.

Results

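LINC (linker of nucleoskeleton and cytoskeleton) complex and nuclear lamina genes were examined in ChIP-seq peak lists of 4T1 cells. The 10 genes were chosen by symbol, for the function of their products: *Sun1*, *Sun2*, *Syne1*, *Syne2*, *Syne3*, *Lmna*, *Lmnb1*, *Lmnb2*, *Lbr* and *Emd*. All 10 were found among the 18562 genes of the 6 lists. 4T1 is a mammary tumor line from a spontaneous primary tumor of a BALB/cJ mouse. The sg-Ctrl cells carried a non-targeting guide RNA, and the *Nup210* KO cells, named KO-N13, were made with CRISPR/Cas9 and are a single clone. The methods give 1 culture protocol for ChIP-seq of 4T1 cells and do not say whether sg-Ctrl and KO cells were grown in parallel. H3K4me3 and H3K27me3 were profiled in sg-Ctrl and KO cells, and NUP210 and nuclear pore complex proteins (NPC, antibody mAb414, which binds several nucleoporins) in sg-Ctrl cells only. The lists hold 1 library for each of the 6 conditions, and with no replicates no difference between KO and sg-Ctrl cells was tested. Intervals are 95% intervals for counting error only, and a difference between the 2 libraries of a mark can also be a difference between cultures, clones or immunoprecipitations.

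The LINC complex spans both membranes of the nuclear envelope. SUN proteins (SUN1 and SUN2) sit in the inner membrane and bind lamins on the nuclear side. In the space between the membranes they bind the KASH domains of nesprins (encoded by *Syne1*, *Syne2* and *Syne3*), whose long arms reach actin, microtubules or intermediate filaments. The lamina under the inner membrane is a mesh of A-type lamins (*Lmna*) and B-type lamins (*Lmnb1*, *Lmnb2*). Lamin B receptor (*Lbr*) and emerin (*Emd*) are inner membrane proteins that tie heterochromatin and the lamina to the envelope. The study asked how loss of NUP210, a membrane-spanning nucleoporin that it examined together with LINC proteins, alters chromatin at genes. The lists address whether the genes that encode this machinery carried the marks themselves. H3K4me3 marks the start of active genes, and H3K27me3 is the Polycomb mark of silent genes.

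All 10 genes carried an H3K4me3 peak at a TSS in both libraries, as did 12197 of the 18562 genes in at least 1 list. *Syne1* alone carried H3K27me3 and NUP210 peaks, and *Syne1* and *Syne2* carried NPC peaks. *Syne1* was thereby in all 6 lists, a pattern shared by 199 of 12197 genes with H3K4me3 in both libraries (1.63%). *Syne2* was in the H3K4me3 and NPC lists, as were 401 genes (3.29%). The other 8 genes were in the H3K4me3 lists only, like 8184 genes (67.1%).

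The sequence upstream of these starts differs in CpG content, which in mammals goes with H3K4me3. The 250 bases before 5 starts are shown because they cover the range, from a CpG-rich SUN gene to the CpG-poor starts of *Lmna* and *Syne1*. They are RefSeq sequences of GRCm38.p6, all on the minus strand and written 5′ to 3′, with each CG in capitals. They lie at chr15:79742537-79742786 (*Sun2*), chr1:181842402-181842651 (*Lbr*), chr3:88503353-88503602 (*Lmna*, the outer start), chr10:5550693-5550942 (*Syne1*, the long transcript) and chr10:5069064-5069313 (*Syne1*, the short transcript).
Sun2: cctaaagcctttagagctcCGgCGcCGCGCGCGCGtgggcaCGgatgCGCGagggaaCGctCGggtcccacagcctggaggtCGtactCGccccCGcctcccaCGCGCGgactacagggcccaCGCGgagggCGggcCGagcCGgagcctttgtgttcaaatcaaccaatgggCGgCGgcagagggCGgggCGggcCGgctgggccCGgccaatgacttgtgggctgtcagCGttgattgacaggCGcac
Lbr: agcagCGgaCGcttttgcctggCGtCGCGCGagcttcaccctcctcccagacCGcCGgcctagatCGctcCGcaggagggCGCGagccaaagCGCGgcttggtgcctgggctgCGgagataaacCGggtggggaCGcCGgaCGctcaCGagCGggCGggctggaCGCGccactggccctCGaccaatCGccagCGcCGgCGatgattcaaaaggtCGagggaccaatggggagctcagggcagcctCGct
Lmna: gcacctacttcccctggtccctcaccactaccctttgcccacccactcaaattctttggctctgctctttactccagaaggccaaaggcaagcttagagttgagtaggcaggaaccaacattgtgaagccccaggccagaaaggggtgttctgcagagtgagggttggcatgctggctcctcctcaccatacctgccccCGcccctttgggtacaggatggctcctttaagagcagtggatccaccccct
Syne1 long: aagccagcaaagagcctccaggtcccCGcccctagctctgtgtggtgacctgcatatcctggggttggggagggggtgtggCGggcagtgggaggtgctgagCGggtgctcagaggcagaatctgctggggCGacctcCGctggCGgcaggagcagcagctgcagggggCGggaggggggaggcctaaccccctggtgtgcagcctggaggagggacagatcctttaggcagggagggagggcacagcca
Syne1 short: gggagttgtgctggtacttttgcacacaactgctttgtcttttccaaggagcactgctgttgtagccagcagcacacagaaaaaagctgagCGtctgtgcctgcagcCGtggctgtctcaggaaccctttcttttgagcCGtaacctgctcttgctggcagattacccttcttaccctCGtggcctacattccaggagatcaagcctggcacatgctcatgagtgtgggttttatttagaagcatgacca
The *Sun2* and *Lbr* stretches hold 31 CG each, the *Lmna* stretch 1, the long *Syne1* stretch 7 and the short *Syne1* stretch 4. The letters CG read the same on both strands. At least 10 CG were found in 37.8% of all 32851 RefSeq promoters of this length. The share was 80.3% of the 11814 whose start lay under an H3K4me3 peak in sg-Ctrl cells and 13.9% of the 21037 whose start did not. Promoters of 9 of the genes were counted, 14 in all, and *Lmnb1* was left out of this count. Of these, 8 starts lay under H3K4me3 and had 1 to 31 CG, and 6 did not and had 1 to 7 CG. Both *Lmna* starts, with 4 and 1 CG, lay under H3K4me3 in both libraries. Neither *Syne1* start shown did, and the *Syne1* start that did is described by position only.

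H3K4me3 levels are given as reads per kb of the TSS peak after division by the size of the library relative to IgG, so that genes can be compared per length. For genes with more than 1 such peak, that of the highest level was used. In sg-Ctrl cells the level was 938 (911 to 965) at *Syne1*, 810 at *Lbr*, 654 at *Lmnb2*, 609 at *Sun1*, 462 at *Sun2*, 431 at *Syne2*, 418 at *Lmnb1*, 418 at *Emd*, 378 at *Lmna* and 199 (191 to 207) at *Syne3*. The median of all genes was 543, so 4 of the genes lay above it and 6 below. In this order the intervals of *Lmnb2* and *Sun1* overlapped, as did those of *Sun2* and *Syne2*, of *Syne2* and *Lmnb1*, and of *Lmnb1* and *Emd*. In KO cells the levels ran from 212 at *Lmna* to 470 at *Syne2*, with 382 as the median of all genes. The spread between genes was thus narrower in KO cells, and *Syne1*, first in sg-Ctrl cells, had a KO level of 380.

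**Figure D1:**
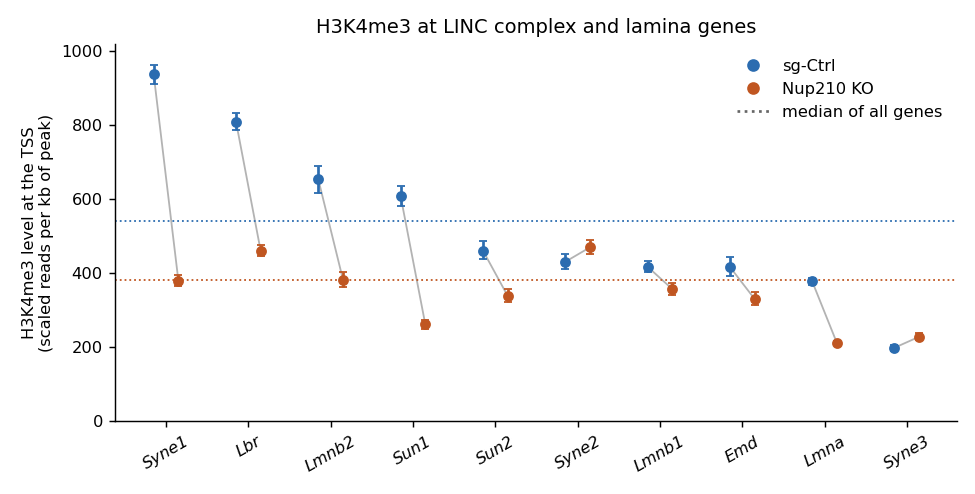
H3K4me3 level at the TSS (scaled reads per kb of peak, linear axis) of the 10 genes in sg-Ctrl (blue) and *Nup210* KO (orange) cells, 1 library each. Bars are exact Poisson 95% intervals and dotted lines the medians of all genes, 543 in sg-Ctrl and 382 in KO. *Syne1* went from 938 to 380, while *Syne2* and *Syne3* are the 2 genes with a higher level in KO.

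Under library-size scaling most genes had a lower H3K4me3 level in KO cells, and the 10 genes were spread across that distribution. As a log2 ratio of KO over sg-Ctrl, the median was -0.61 over the 10 genes and -0.50 over all 12197, and 8 of the 10 were below 0 against 88.7% of all genes. Of the 10, 5 lay below the median of all genes. *Sun1* and *Syne1* were at least 2-fold lower in reads per kb, 2 of 10, where the background was 9.66% of all genes. None of the 10 was at least 2-fold higher, against 0.525% of all genes. Counted as total reads over all TSS peaks of a gene, *Syne1* alone was at least 2-fold lower, with a background of 7.29%. Relative to the median of all genes, 0 of the 10 were 2-fold lower in reads per kb (background 0.926%) and 1, *Syne1*, was in total reads (background 2.25%). When libraries were scaled by the reads in their shared H3K4me3 peaks, every ratio was 0.42 higher on the log2 scale, the median of the 10 genes was -0.19 and that of all genes -0.08. Among all genes, 1178 were at least 2-fold lower and 64 higher by library size, against 153 lower and 211 higher with shared-peak scaling. With the latter, 4 of the 10 (*Syne2*, *Syne3*, *Lmnb1* and *Emd*) were above 0. Directions below are those of the library-size scaling. The log2 ratio of reads per kb minus the median of all genes was negative at *Syne1* (-0.80), *Sun1* (-0.72), *Lmna* (-0.34), *Lbr* (-0.31) and *Lmnb2* (-0.27). It was positive at *Sun2* (0.06), *Emd* (0.16), *Lmnb1* (0.27), *Syne2* (0.62) and *Syne3* (0.70).

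**Figure D2:**
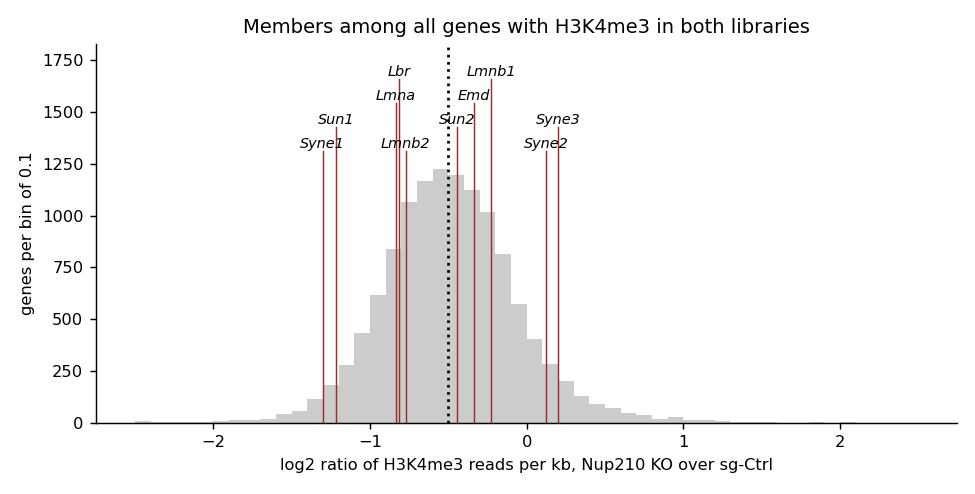
Number of genes (y axis) by log2 ratio of H3K4me3 reads per kb, *Nup210* KO over sg-Ctrl (x axis, bins of 0.1), for the 12197 genes with a TSS peak in both libraries. Values beyond the axis are counted in the outermost bins. Red lines mark the 10 genes and the dotted line the median of all genes, -0.50. *Syne1* (-1.30) and *Sun1* (-1.22) lie in the lower tail, and *Syne2* (0.13) and *Syne3* (0.20) in the upper part.

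Both SUN genes were lower in KO cells in reads per kb, although *Sun2* lay 0.06 above the median of all genes on the log2 scale. At *Sun1* (chr5, plus strand) the main peak held 2066 reads over 3.2 kb in sg-Ctrl cells (chr5:139199401-139202600). In KO cells a single peak held 2048 reads over 5.8 kb (chr5:139196601-139202400). The log2 ratio of reads per kb was -1.22 (-1.30 to -1.13), which 3.50% of all genes reached or went below. The sg-Ctrl library listed a second, small *Sun1* peak of 201 reads that ended 3.04 kb upstream of the TSS, 1.8 kb from the main peak, and the KO peak spanned both. In total reads over all TSS peaks the ratio was -0.49 (-0.58 to -0.40), against -0.33 for the median of all genes. The 2-fold difference of *Sun1* in reads per kb was therefore found together with a wider listed peak. At *Sun2* (chr15, minus strand, the CpG-rich stretch above) 1371 reads over 2.8 kb in sg-Ctrl cells stood against 1463 over 3.2 kb in KO cells. Its log2 ratio was -0.44 (-0.55 to -0.34), close to the median of all genes, and -0.25 in total reads. The *Sun2* peak is also listed for *Gm16576*, and its reads cannot be assigned to either gene alone.

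The nesprin genes took both ends of the range. *Syne1* encodes nesprin-1, and its H3K4me3 lay at an internal TSS (transcript NM_001079686, chr10:5194707), 356 kb downstream of the start of the long transcript. The long transcript as listed is 214 kb, so this TSS lies past its end and is internal to the gene, not to that transcript. The H3K4me3 peak there held 4774 reads in sg-Ctrl cells (chr10:5191601-5196400) and 2357 in KO cells (chr10:5192401-5197000), over 4.8 and 4.6 kb. The log2 ratio was -1.30 (-1.37 to -1.23) in reads per kb, with 2.30% of all genes at or below it, and -1.36 (-1.44 to -1.29) in total reads. After subtraction of the all-gene median of each measure, *Syne1* was at -0.80 in reads per kb and at -1.04 in total reads, so it lay past 2-fold below the typical gene by the second measure and not by the first. *Syne2*, which encodes nesprin-2, held 1738 reads in the sg-Ctrl library and 2408 in the KO library, over 3.8 kb in both. Its log2 ratio was 0.13 (0.04 to 0.22) by both measures, above 92.6% of all genes. *Syne3* encodes nesprin-3, which binds plectin and so intermediate filaments. Its sg-Ctrl peak was 10.6 kb wide with 2236 reads, wider than 98.3% of all TSS peaks. In KO cells the same stretch was listed as peaks of 6.8 kb with 2095 reads and 3.2 kb with 287 reads. The ratio at *Syne3* was 0.20 (0.11 to 0.29) in reads per kb and -0.34 (-0.43 to -0.26) in total reads, so its sign turned with the measure. A second *Syne3* start (NM_001042699) had a peak of 142 reads against 36 IgG reads at chr12:104998801-105002000 in sg-Ctrl cells, and none was listed there in KO cells.

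**Figure D3:**
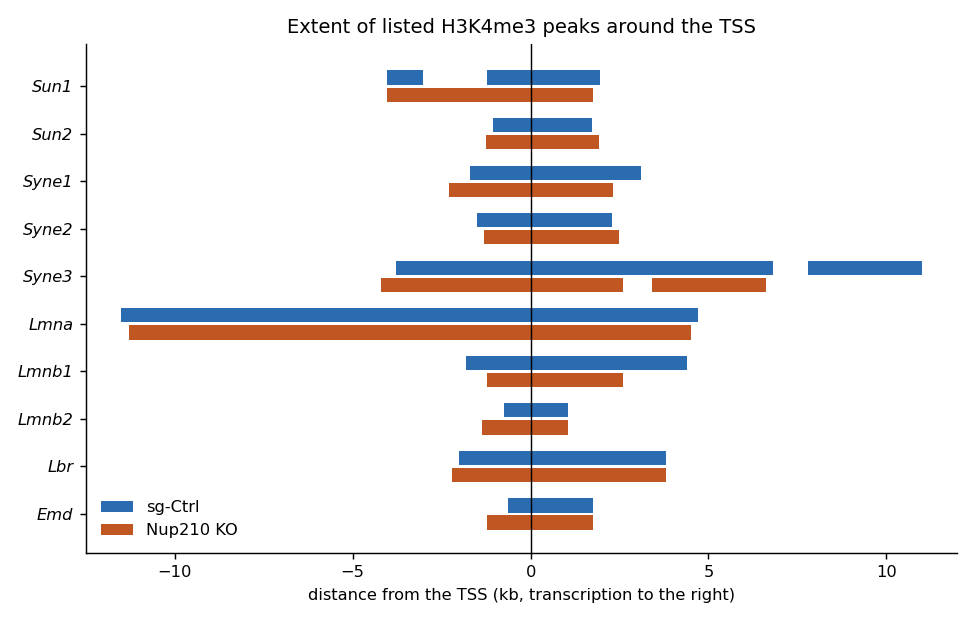
Extent of each listed H3K4me3 peak around the TSS (x axis, kb, transcription to the right) for the 10 genes in sg-Ctrl (blue) and *Nup210* KO (orange) cells. The *Lmna* peak spans 16.2 kb in sg-Ctrl and 15.8 kb in KO, 2 *Sun1* peaks in sg-Ctrl correspond to 1 in KO, and the 10.6 kb *Syne3* peak in sg-Ctrl corresponds to 2 in KO.

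The lamin genes were lower in KO cells in reads per kb, by differing amounts, but *Lmnb1* lay 0.27 above the median of all genes and was 0.20 above 0 on the log2 scale with shared-peak scaling. *Lmna*, which encodes lamins A and C, had the widest H3K4me3 peak of the 10, 16.2 kb with 6503 reads in sg-Ctrl cells (chr3:88488601-88504800) and 15.8 kb with 4514 reads in KO cells (chr3:88488801-88504600). It was wider than 99.6% of all TSS peaks in sg-Ctrl cells and spanned both *Lmna* starts, which lie 10.04 kb apart. The log2 ratio was -0.84 (-0.89 to -0.78) in reads per kb and -0.87 (-0.93 to -0.82) in total reads, so the measures gave like values. At *Lmnb1*, which encodes lamin B1, 2749 reads over 6.2 kb in sg-Ctrl cells stood against 1831 over 3.8 kb in KO cells. The downstream end of the *Lmnb1* peak lay 4.39 kb past the TSS in sg-Ctrl cells and 2.59 kb past it in KO cells. Its log2 ratio was -0.23 (-0.31 to -0.14) in reads per kb and -0.93 (-1.02 to -0.85) in total reads, the reverse of the pattern at *Sun1*. *Lmnb2*, which encodes lamin B2, held 1249 reads over 1.8 kb in sg-Ctrl and 1238 over 2.4 kb in KO cells. The *Lmnb2* ratio was -0.77 (-0.89 to -0.66) in reads per kb and -0.36 (-0.47 to -0.24) in total reads, near the median of all genes in the latter.

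Of the inner membrane proteins, *Lbr* was lower in KO cells by both measures and *Emd* in reads per kb, where it was 0.09 above 0 on the log2 scale with shared-peak scaling. Lamin B receptor also acts as a sterol reductase. *Lbr* held 4984 reads over 5.8 kb in sg-Ctrl and 3725 over 6 kb in KO cells, with log2 ratios of -0.81 (-0.88 to -0.75) in reads per kb and -0.77 (-0.83 to -0.70) in total reads. At *Emd*, on chromosome X, 1063 reads over 2.4 kb stood against 1338 over 3 kb. The ratio was -0.34 (-0.45 to -0.22) in reads per kb, and in total reads it was -0.01 (-0.13 to 0.10), an interval that includes 0. Over the 10 genes, the peak was wider in KO cells at 5, equal at 1 and narrower at 4, and their median width was 4.3 kb in sg-Ctrl and 4.2 kb in KO cells. Over all genes the median width was 3.6 kb in sg-Ctrl and 4.2 kb in KO cells. *Syne1*, *Lmna* and *Lbr* were the 3 genes below the median of all genes by both measures with peaks of nearly the same width in both libraries.

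**Figure D4:**
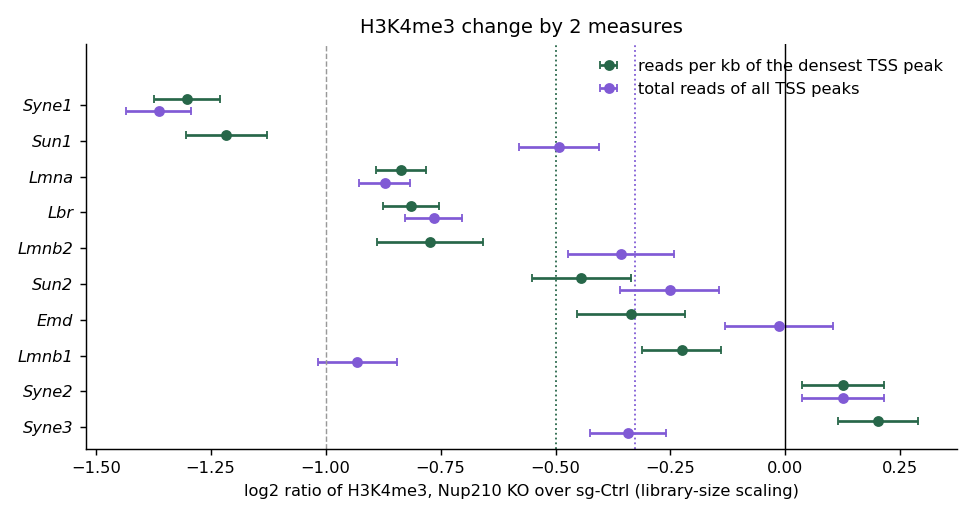
Log2 ratio of H3K4me3, *Nup210* KO over sg-Ctrl (x axis), by reads per kb of the densest TSS peak (green) and by total reads of all TSS peaks (purple), with exact 95% intervals for counting error. Dotted lines are the medians of all genes, -0.50 and -0.33, and the dashed line marks a 2-fold lower value. *Syne1* is past 2-fold by both measures, and *Sun1*, *Lmnb1* and *Syne3* differ most between them.

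H3K27me3 was found at *Syne1* only, 1 of 10 in each library. The background was 5.46% of genes with H3K4me3 in both libraries for sg-Ctrl and 4.3% for KO. The mark lay on the long transcript (NM_153399, 214 kb), whose start has no H3K4me3 peak. In sg-Ctrl cells 3 peaks covered 94.9% of it, at chr10:5314001-5388000 (3822 reads against 973 IgG reads, 4.64-fold over IgG), chr10:5395001-5479000 (4433 against 1246, 4.20-fold) and chr10:5483001-5580000 (3485 against 1194, 3.45-fold). The last of these ran 29.3 kb past the start of the gene. In KO cells 2 peaks covered 203 kb of it, the same length as in sg-Ctrl cells to the nearest kb, at chr10:5318001-5388000 (7992 against 945, 3.16-fold) and chr10:5395001-5547000 (19004 against 2076, 3.42-fold). The KO domain ended 3.69 kb inside the long TSS, so the stretch of 7 CG printed above lay under H3K27me3 in sg-Ctrl cells and outside it in KO cells. Among 5231 transcripts with H3K27me3 peaks in both libraries, the TSS was covered at 2883 in sg-Ctrl cells. Of these, 281 (9.75%) were not covered in KO cells, and the opposite held for 475 of 3077 (15.4%). Transcripts with peaks in 1 library only were left out of these counts. For H3K27me3 the KO library was the deeper one, by 3.16 times.

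Over its peaks on the long transcript, the H3K27me3 level of *Syne1* was 54.4 (53.4 to 55.4) in sg-Ctrl and 45.4 (44.9 to 46.0) in KO cells, in scaled reads per kb. The log2 ratio was -0.26 (-0.29 to -0.23), and -0.46 (-0.49 to -0.43) in total reads. Over the 4234 genes with H3K27me3 peaks in both libraries the medians were -0.13 and 0.13, and *Syne1* stood at the percentiles 33.0 and 22.3. Both marks were therefore lower at *Syne1* in KO cells under library-size scaling, at sites far apart. The H3K4me3 peak at the internal TSS lay 118 kb from the nearest H3K27me3 peak in sg-Ctrl cells and 121 kb in KO cells. Of the 666 genes with both marks in sg-Ctrl cells, the marks overlapped at 282 (42.3%) and lay apart at 384, as at *Syne1*. For the other 9 genes, the nearest H3K27me3 peak in the lists was 44.1 kb (*Syne2*) to 792 kb (*Syne3*) from the gene in sg-Ctrl cells. The lists of H3K27me3 hold only peaks on gene bodies, so nearer peaks between genes would not be seen.

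**Figure D5:**
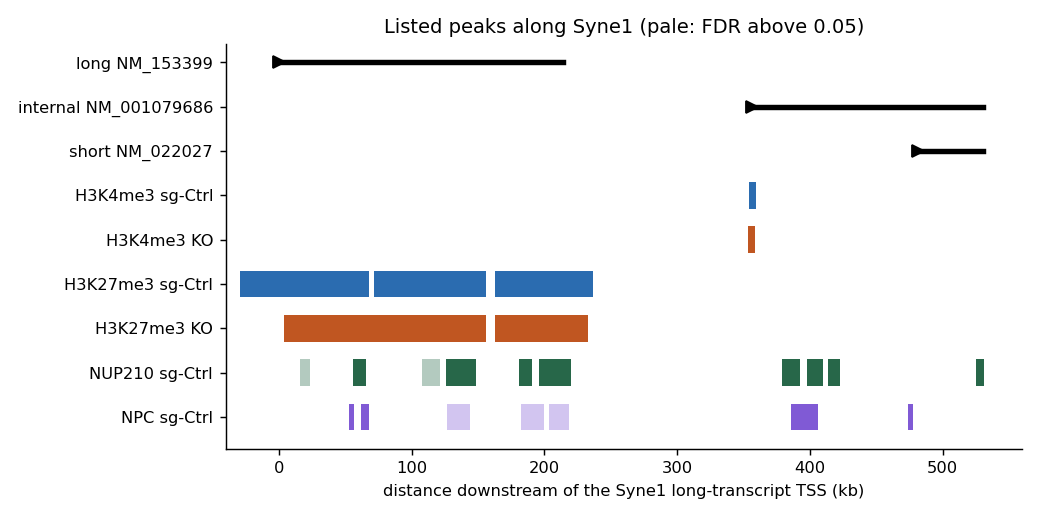
Peaks listed for *Syne1* in the 6 libraries (rows) by distance downstream of the TSS of the long transcript (x axis, kb), below its 3 listed transcripts, whose arrows mark the starts. Pale bars have an FDR above 0.05. H3K27me3 covers 203 kb of the 214 kb long transcript in both sg-Ctrl and KO cells, and the H3K4me3 peak lies 356 kb downstream.

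NUP210 peaks were listed for *Syne1* only, 1 of 10 against 26.3% of all genes with H3K4me3 in both libraries. Such peaks were listed more often for long genes, for 71.0% of the 372 genes of at least 200 kb. *Syne1* had 10 NUP210 peaks that covered 130 kb in all, 6 on the long transcript and 4 on the internal one. The highest enrichment was 1.505-fold over IgG at chr10:5360001-5370000, with 356 reads against 234 IgG reads. Next came chr10:5128001-5137000, with 224 reads against 149 (1.49-fold). The weakest, at chr10:5429001-5443000, was below IgG at 0.94-fold, with 272 reads against 287. An FDR of at most 0.05 was reached by 8 of the 10, none reached 2-fold, and the median of all listed NUP210 peaks was 1.19-fold. All 6 NUP210 peaks on the long transcript overlapped H3K27me3 peaks of either cell line. H3K27me3 covered 203 kb of the 214 kb of that transcript in both, so this overlap follows from position.

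NPC peaks were listed for *Syne1* and *Syne2*, 2 of 10 against 24.9% of all genes and 70.2% of the genes of at least 200 kb. These are the 2 longest of the genes, with listed transcripts of 214 kb and 293 kb. *Syne1* had 7 NPC peaks over 83 kb, at 1.03-fold to 1.71-fold over IgG, 4 of them within an FDR of 0.05. The 5 on the long transcript overlapped H3K27me3 in sg-Ctrl cells. H3K27me3 covered 94.9% of that transcript, so this overlap follows from position. Of the 10 NUP210 peaks of *Syne1*, 6 overlapped an NPC peak. The strongest NPC peak of *Syne1* was at chr10:5494001-5498000, with 115 reads against 111 IgG reads, and the IgG library was the larger. *Syne2* had 1 NPC peak of 8 kb at chr12:75944001-75952000, with 175 reads against 169 IgG reads (1.71-fold). NUP210 and NPC were not profiled in KO cells. The lists give whole gene intervals, so exons and introns were not told apart. For the 9 genes other than *Syne1* the nearest NUP210 peak in the lists was 57.6 kb (*Lbr*) to 1217 kb (*Lmnb2*) away. The NUP210 list holds only peaks on gene bodies, and the paper places the majority of NUP210 peaks between genes. Nearer peaks between genes would thus not be seen.

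Further genes of the nuclear envelope were taken from a list of relatives, binding partners and processing enzymes. Of these 28 genes, 23 had a TSS peak in both libraries, with a median log2 ratio of -0.54. Among these 23, 4 were at least 2-fold lower in reads per kb (9.66% of all genes), 1 was in total reads (7.29% of all genes), and 0 were 2-fold higher in reads per kb (0.525% of all genes). In reads per kb the lowest were *Syne4*, which encodes nesprin-4 and links the nucleus to kinesin-1 (347 reads in sg-Ctrl, 156 in KO, -1.31), and *Dst*, which encodes a spectraplakin (12439 and 9255 reads, -1.08). The highest by that measure were *Sun3*, a SUN gene of the testis (132 and 171 reads, 0.03), and *Nrm*, which encodes nurim of the inner membrane (5292 and 7159 reads, -0.02). *Nrm* had 2 peaks in sg-Ctrl cells, and the denser one used here (chr17:35864801-35875200) lay downstream of the TSS (chr17:35861318). The KO peak (chr17:35860201-35871400) spanned that TSS, so the *Nrm* ratio compares different stretches. In total reads *Syne4* was at -1.50, *Dst* at -0.77, *Sun3* at 0.03 and *Nrm* at -0.16, and the order of the list differed. The class medians in reads per kb ran from -0.82 for the 5 lamin processing enzymes to -0.11 for the 3 measured SUN and KASH relatives, and these classes stood at -0.48 and 0.03 in total reads. Of the torsin cofactors, *Tor1aip1* and *Tor1aip2* share 1 peak, so they are not separate measurements. H3K27me3 was listed for 3 of the 28 in each library (*Sun3*, *Sun5* and *Lrmp*), NUP210 for 6 and NPC for 6. Of the 23 with H3K4me3 in both libraries, 1 had H3K27me3 in each library (5.46% and 4.3% of all such genes), 4 had NUP210 (26.3%) and 6 had NPC (24.9%).

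The targeted gene *Nup210* had 885 H3K4me3 reads in sg-Ctrl and 913 in KO cells, with a log2 ratio of -0.41 (-0.54 to -0.27). A CRISPR/Cas9 mutation need not alter the mark at the start of a gene, so this checks nothing about the knockout. H3K4me3 was listed in both libraries for 7 of 7 epithelial markers, 2 of 5 fibroblast markers (*Pdgfra* and *Col1a1*), 1 of 5 leukocyte markers (*Cd14*) and 0 of 4 endothelial and 0 of 4 muscle markers. For H3K4me3 the number of markers listed in each class was thus the same in sg-Ctrl and KO cells. H3K27me3 was listed for 1 of the 4 endothelial markers in sg-Ctrl and 3 of 4 in KO cells, and for equal numbers in the other classes.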

How the data were processed

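The data are 6 peak lists from ChIP-seq of 4T1 cells. Peaks were called by the authors with SICER in each library against IgG (window size 200 bp for H3K4me3, 1000 bp for broad signals). The same rabbit IgG library served sg-Ctrl and KO. The authors deposited raw counts of ChIP and IgG reads per peak, a p-value, an FDR and a fold over IgG, a ratio scaled by library size, in which 0.25 reads stand for no IgG reads. The submitters' processing notes name Trimmomatic, Bowtie2, STAR and Picard, and the builds NCBIM37, mm9 and mm10, with no role. Which aligner and genome build the ChIP-seq used is therefore not given in the sources used here. Positions of the 10 genes were on the chromosomes of GRCm38.p6, and for 9 of them an end of the gene differed by at most 50 bp. Of the other samples, the 3 IgG libraries entered through the lists and the 4 of RNA-seq were not used here.

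H3K4me3 was paired with genes within 4 kb of the TSS, and the other targets with gene bodies. The ChIP to IgG library ratio was recovered from reads and folds: for sg-Ctrl cells it was 1.06 (H3K4me3), 0.847 (H3K27me3), 1.01 (NUP210) and 0.606 (NPC), and for KO cells 1.35 (H3K4me3) and 2.68 (H3K27me3). Reads were divided by it. Peaks held 5866175 (NPC) to 26811061 (H3K27me3, KO) reads, and total depth is otherwise unknown. Levels have exact Poisson intervals, and ratios exact conditional binomial intervals. With 1 library per condition no test was made. Overlap required 1 bp. The named genes are the 10 members, *Nup210* and, of 28 partner genes, at most 2 per direction (at least 100 reads in the higher library) and per mark. Cell type markers are given by counts. The markers *Pdgfra*, *Col1a1* and *Cd14*, the genes *Gm16576*, *Tor1aip1* and *Tor1aip2*, and the third of the H3K27me3 partners fall outside this rule and were named after their values were seen. The members and lists were chosen with earlier results of these data known. The 2-fold call and the ratio intervals were tested on simulated counts with counting error only, without changes of peak width or scaling. Alternatives were FDR, fold and coverage limits, scalings and the choice of TSS peak. Software was Python 3.11.15 with scipy 1.17.1, pandas 2.3.3, matplotlib 3.10.9 and numpy 2.4.6.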

Additional observations from a re-analysis of the deposited data

How the results depend on the processing

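The counts of genes with H3K4me3 in both libraries (10) and with H3K27me3 in sg-Ctrl (1) and KO (1) were unchanged under every limit tried on FDR, fold and, for H3K27me3, coverage. A fold over IgG of at least 2 left 0 genes with a NUP210 peak (1.35% of all genes with H3K4me3 in both libraries). It left 0 with an NPC peak (0.189% of all such genes). The limit of 10% of a transcript covered left 1 with NPC, *Syne1* (23.0% of all such genes). The count of genes at least 2-fold lower in H3K4me3 was 2 as reported (9.66% of all genes). With shared-peak scaling it was 0 (1.25% of all genes). It was also 0 centred on the median of all genes (0.926%) and centred on that of the chromosome (0.844%). It was 1 by total reads of the peak (7.63% of all genes) and 1 over all TSS peaks together (9.21%). By total reads of all TSS peaks, a measure chosen after seeing the data, it was 1 (7.29%). The median log2 ratio, -0.61 as reported, was -0.19 with shared-peak scaling, -0.11 centred on all genes, -0.10 centred on chromosomes, -0.40 by total reads of the peak and -0.42 by total reads of all TSS peaks. Over all 12197 genes, the share of 2-fold differences that were lower in KO, 94.8% as reported, was 42.0% with shared-peak scaling and 29.7% centred on all genes, 28.1% centred on chromosomes and 81.1% by total reads of all TSS peaks. *Syne1*, *Sun1*, *Lmna*, *Lbr* and *Lmnb2* were below 0 under all 9 alternatives, and *Syne2* above 0. These alternatives are not separate checks. All of these genes but *Sun1* had 1 TSS peak in each library, where the choice of peak cannot alter the ratio. For the same genes both measures of total reads are the same value. No paired analysis was possible because each ChIP-seq condition has 1 library. For the same reason leaving out a replicate was not possible. At the NUP210 and NPC peaks of these genes the fold over IgG was at most 1.71.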
